A study of Mus musculus with 14 samples.

Results

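The genes described here are 42 ligands and receptors of axon guidance: the Slit and Robo genes (6), the netrins with Dcc and the Unc5 receptors (7), the Eph receptors (14), the ephrins (7), and the semaphorins with the neuropilins (8). Trimethylation of histone H3 at lysine 27 (H3K27me3) was measured over them as the counts in every peak of the deposited table that lay within 5 kb of the RefSeq gene body, summed per gene. Of 74458 peaks in the table, 347 lay within 5 kb of 41 of the 42 genes, and Epha2 had none. The same step gave at least 1 peak to 16313 of 21887 protein-coding genes, so that 97.6% of the guidance genes and 74.5% of all genes were covered. Among the 347 peaks, 33 also lay within 5 kb of a gene outside the list, and no peak was shared by 2 of the 42 genes.

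The study asked whether removing the anchor of a Polycomb-associated chromatin loop alters H3K27me3 elsewhere in the genome. H3K27me3 was profiled by Cut&Tag, in which an antibody tethers a transposase to the mark, in mouse embryonic stem cells (mESCs) that carried a homozygous CRISPR-Cas9 deletion of 1 of 3 anchors. These were Hoxa2 to Hoxa13 in the Hoxa deletion (3 libraries), the Wnt6 locus in the Wnt6 deletion (2 libraries) and the Hmx1 locus in the Hmx1 deletion (2 libraries). All lines came from G4 mESCs of a 129/Sv × C57BL/6 F1 hybrid background and were grown with LIF on CD1 feeder cells. No unedited library has a column in the table, so the libraries of 1 deletion were set against the pooled libraries of the other 2. The labels name no clone, while a figure legend of the paper refers to a clone for each deletion, with 3 replicates. The p-values measure the spread between these libraries, which may be technical. If a deletion was carried by 1 clone, clone and deletion cannot be told apart.

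Axon guidance ligands and receptors steer growing axons by attraction or repulsion. Slits are secreted repellents read by Robo receptors. Netrins attract through Dcc and repel through Unc5 receptors. Ephrins and Eph receptors signal at contacts between cells, and class 3 semaphorins act through neuropilins paired with plexins. Most of these genes serve neurons and blood vessels later in development. In mESCs, Polycomb repressive complex 2 places H3K27me3 mainly over CpG-rich starts of developmental genes that are silent or nearly so.

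The starts of some of the 36 genes with a promoter entry are given as the 250 bases before the RefSeq start (GRCm38.p6). Nrp2, Unc5a and Unc5c had the highest H3K27me3 at the start of these 36, and Ephb4 the lowest with a peak within 1 kb. Epha2 and Sema3a had no peak there, and the start used for Sema3a lies inside its gene body. All lie on the + strand, at chr1:62703067-62703316 for Nrp2, chr13:54949161-54949410 for Unc5a, chr3:141465314-141465563 for Unc5c, chr5:137349859-137350108 for Ephb4, chr4:141300971-141301220 for Epha2 and chr5:13396534-13396783 for Sema3a. Capitals mark the CG dinucleotides, which read the same on both strands.
Nrp2: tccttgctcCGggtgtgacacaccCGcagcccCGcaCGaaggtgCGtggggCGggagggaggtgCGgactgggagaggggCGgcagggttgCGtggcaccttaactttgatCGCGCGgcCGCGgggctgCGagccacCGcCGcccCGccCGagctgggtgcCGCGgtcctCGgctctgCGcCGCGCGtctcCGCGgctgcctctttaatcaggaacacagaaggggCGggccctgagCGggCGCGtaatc
Unc5a: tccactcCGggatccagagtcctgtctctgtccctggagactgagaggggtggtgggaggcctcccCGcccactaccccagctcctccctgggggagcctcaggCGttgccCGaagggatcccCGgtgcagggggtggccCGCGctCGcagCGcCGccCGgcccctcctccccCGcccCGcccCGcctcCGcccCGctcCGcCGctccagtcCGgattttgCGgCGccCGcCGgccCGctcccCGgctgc
Unc5c: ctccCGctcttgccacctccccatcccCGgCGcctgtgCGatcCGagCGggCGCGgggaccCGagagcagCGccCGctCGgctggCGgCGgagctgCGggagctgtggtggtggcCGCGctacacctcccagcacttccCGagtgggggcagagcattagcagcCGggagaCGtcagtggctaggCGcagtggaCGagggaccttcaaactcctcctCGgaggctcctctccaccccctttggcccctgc
Ephb4: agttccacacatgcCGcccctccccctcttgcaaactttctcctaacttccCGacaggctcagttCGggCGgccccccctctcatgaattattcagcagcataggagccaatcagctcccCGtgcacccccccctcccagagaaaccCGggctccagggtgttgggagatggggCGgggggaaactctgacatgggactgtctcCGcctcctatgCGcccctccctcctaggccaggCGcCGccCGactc
Epha2: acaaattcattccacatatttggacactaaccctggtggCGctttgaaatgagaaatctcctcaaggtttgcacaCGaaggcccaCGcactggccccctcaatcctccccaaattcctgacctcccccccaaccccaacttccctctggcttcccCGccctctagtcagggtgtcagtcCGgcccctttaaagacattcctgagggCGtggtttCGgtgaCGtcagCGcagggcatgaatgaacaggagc
Sema3a: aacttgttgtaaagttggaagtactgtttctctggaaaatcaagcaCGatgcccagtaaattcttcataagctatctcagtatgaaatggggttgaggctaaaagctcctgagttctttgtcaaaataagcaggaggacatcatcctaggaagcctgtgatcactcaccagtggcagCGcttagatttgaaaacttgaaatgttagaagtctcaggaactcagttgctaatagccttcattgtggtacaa
These stretches hold 32 CG dinucleotides in Nrp2, 25 in Unc5a, 23 in Unc5c, 12 in Ephb4, 9 in Epha2 and 2 in Sema3a. RefSeq promoter entries of 300 bases, with 250 before and 50 after the start, matched 36 of the 42 genes. In them the guidance genes had a median of 22 CG (2 to 56), where 17492 protein-coding genes with an entry had a median of 14, and 94.9% of all entries held at least 1. A peak lay within 1 kb of the start in 34 of the 36 guidance genes (94.4%) and in 62.9% of all genes. The median level there was 54.8 CPM per kb of peak for the guidance genes and 11.4 for all genes with such a peak, where CPM is a count scaled to a common library size, from the library's counts in peaks and its TMM factor. Per-kb values divide by the summed width of the peaks and are the only scale on which genes are set against each other.

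Nrp2 had 111 CPM per kb at its start, Unc5a 99.7, Unc5c 94.6 and Ephb4 8.67. Unc5d, which has no promoter entry, had 120 CPM per kb in its largest peak, which spans an edge of its gene body. CG content and level were loosely ordered. Spearman's rho between CG count and start level was 0.44 over the 36 guidance genes and 0.58 over all 17492 genes, with genes lacking a start peak at 0, as a description of points that share libraries and base composition. Over all genes the share with a start peak went from 16.1% at 0 to 4 CG to 93.3% at 25 or more, whereas the median level of the genes with a peak lay between 7.71 and 12.1 CPM per kb in every range of CG. Guidance genes with 25 or more CG had a median of 60.8. Nrp1 with 14 CG and Sema3d with 8 CG had 87.8 and 57.1 CPM per kb, and Epha8 with the most CG, 56, had 56.2.

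**Figure D1:**
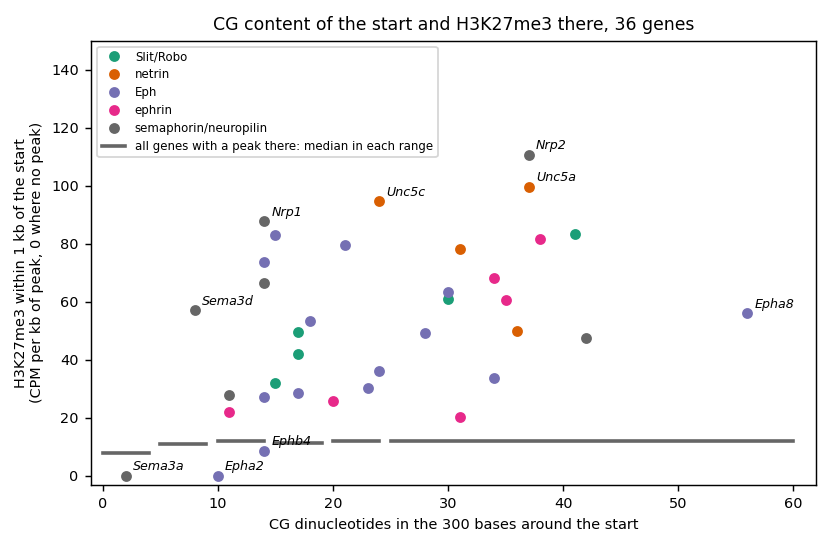
CG dinucleotides in the 300 bases around the start (x axis) against H3K27me3 within 1 kb of the start in CPM per kb of peak (y axis), with 1 point for each of 36 guidance genes, coloured by subfamily, and grey bars for the median of all genes with a peak there in each range of CG. Sema3a and Epha2 sit at 0, Ephb4 at 8.67 and all other points above 20.

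Total counts per library ranged from 6016500 to 36563541, and the smallest gene sum was 47 counts, for Ephb4 in the first Hmx1 library. The stretch removed in each deletion was read from the counts and not from the breakpoints. It is the longest run of neighbouring peaks with under 10% of the others' mean signal in all libraries of the label. Low signal there, at most 0.540% of the others, therefore follows from this choice and is no separate check of the labels. The runs held 46 peaks on chromosome 6 (Hoxa), 34 on chromosome 1 (Wnt6) and 11 on chromosome 5 (Hmx1). Distances from a removed stretch are measured from these runs. By their medians, the marker lists had the order of levels of embryonic stem cells. Polycomb target markers such as Gata6 and Pax6 had a median of 56.5 CPM per kb (10 of 10 with a peak), and pluripotency markers such as Pou5f1 and Nanog 5.80 (7 of 10). Of these 7 pluripotency markers, 2 lay above the median of all genes with a peak, 10.9, and the highest had 19.1. Markers of feeder fibroblasts had a median of 29.1 (8 of 10 with a peak), and none of the 8 was called in any deletion. In bulk libraries, fewer cells with the mark and less of the mark per cell cannot be told apart.

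H3K27me3 over the guidance genes was high in all 3 deletions. Their median level was 32.5 CPM per kb of peak (mean of the 3 deletion means per gene), against 10.9 for all genes with a peak. Of the 41 genes, 40 lay above that median of all genes, and 14 (34.1%) lay above the 90th percentile of all genes, 41.2. By library, the median of the 41 genes ran from 29.9 to 34.4 CPM per kb. Receptors and ligands were alike in the middle of their ranges, with medians of 32.5 for 23 receptors and 29.6 for 18 ligands.

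**Figure D2:**
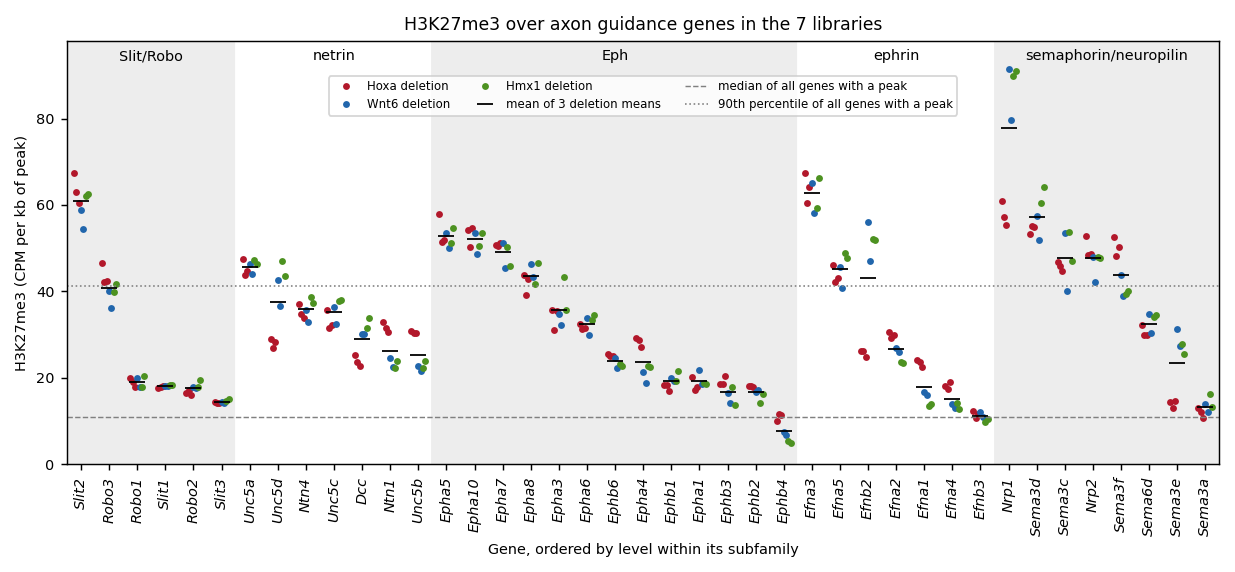
H3K27me3 in CPM per kb of peak (y axis) for 41 guidance genes (x axis, by subfamily and level), with 1 point for each of 7 libraries, coloured by deletion, and a bar for the mean of the 3 deletion means. The dashed line at 10.9 and the dotted line at 41.2 mark the median and the 90th percentile of all genes with a peak; Ephb4 alone has its mean below the dashed line.

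The 3 Slit genes, which encode the secreted repellents, differed in how the mark was laid out. Slit2 had a single peak of 3.74 kb at its start and the third highest level of all guidance genes, 60.8 CPM per kb. Its sum was 252, 236 and 226 CPM in the Hoxa libraries, 220 and 203 in the Wnt6 libraries and 232 and 234 in the Hmx1 libraries. Slit3 had 48 peaks totalling 27.3 kb along its gene, most of them low, so that its level was 14.5 CPM per kb although its start alone reached 83.4 and held 41.8% of its CPM. Slit1 had 15 peaks and 18.1 CPM per kb, and its sums were the tightest of the family, from 212 to 219 CPM over the 7 libraries. Among the receptors, Robo3, which governs midline crossing by commissural axons, stood highest at 40.9, with 406, 368 and 371 CPM in the Hoxa, 351 and 316 in the Wnt6 and 348 and 366 in the Hmx1 libraries. Robo1 and Robo2 had 19.02 and 17.65.

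In the netrin group the ligands Ntn1 and Ntn4 had 26.1 and 35.8 CPM per kb. Unc5a, a receptor for netrin repulsion, was highest at 45.7, with 15 peaks and 490, 451 and 460 CPM in the Hoxa, 477 and 454 in the Wnt6 and 487 and 476 in the Hmx1 libraries. Its 7 values overlapped between all 3 deletions. Unc5d followed with 37.6, then Unc5c with 35.1, Dcc, the attractive netrin receptor, with 28.9 and Unc5b with 25.2.

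Eph receptors, the largest family of receptor tyrosine kinases, spanned the widest ratio, from 7.75 CPM per kb in Ephb4 to 52.8 in Epha5, with a median of 23.9 over 13 genes. Epha5 had 189, 167 and 169 CPM in the Hoxa, 174 and 163 in the Wnt6 and 167 and 178 in the Hmx1 libraries, nearly all of it (97.5%) in the peaks at its start. Epha10, which lacks kinase activity, had 52.1 CPM per kb, with 395, 367 and 399 CPM in the Hoxa, 390 and 355 in the Wnt6 and 369 and 391 in the Hmx1 libraries. Both genes had overlapping values in all deletions. Epha7 (49.1) and Epha8 (43.7) came next, and Ephb1 had 19.3 spread over 44 peaks, with 73.7 at its start. Epha1, Epha3, Epha4, Epha6, Ephb2, Ephb3 and Ephb6 lay between 16.7 and 35.6.

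Of the ephrins, which are membrane-bound ligands of Eph receptors, Efna3 was highest at 62.8 CPM per kb. It had 298, 267 and 284 CPM in the Hoxa, 288 and 257 in the Wnt6 and 262 and 293 in the Hmx1 libraries. Efna5, which takes part in mapping retinal axons onto the midbrain, had 45.1, with 295, 270 and 276 CPM in the Hoxa, 292 and 261 in the Wnt6 and 312 and 305 in the Hmx1 libraries. In Efna3 the deletions overlapped, whereas both Hmx1 libraries of Efna5 lay above the other 5, without a call (log2 fold change 0.15 in the Hmx1 deletion, edgeR adjusted p = 0.354). At the low end, Efnb3, which helps keep spinal axons from recrossing the midline, had 11.1, with 26.8, 23.2 and 25.6 CPM in the Hoxa, 26.6 and 23.9 in the Wnt6 and 21.5 and 23.0 in the Hmx1 libraries. All 3 peaks of Efnb3 also lay within 5 kb of another gene.

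The semaphorins and neuropilins had the highest median, 45.7 CPM per kb. Nrp1, the neuropilin that binds Sema3a, was the highest of all guidance genes at 77.9, with 99.4% of its CPM in 1 peak of 2 at the start. Sema3d had a single peak and 57.1 CPM per kb, from 100.03, 104 and 103 CPM in the Hoxa, 108 and 97.6 in the Wnt6 and 114 and 120 in the Hmx1 libraries. Sema3a itself, the repellent that collapses growth cones, had 13.3. Its sums were 23.6, 22.3 and 19.8 CPM in the Hoxa, 25.4 and 22.0 in the Wnt6 and 29.9 and 24.4 in the Hmx1 libraries. None of its 3 peaks lay within 1 kb of the start in its promoter entry, which sits inside the gene body. A peak of 5.39 CPM per kb lay at -271.24 kb from that start, and the gene body begins at -271.962 kb. Sema3a and Nrp1, ligand and receptor, stood near opposite ends of the order of levels. Sema3c (47.7), Nrp2 (47.6), Sema3f (43.8), Sema6d (32.5) and Sema3e (23.3) lay between.

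Over the 34 genes with a peak within 1 kb of the start, those peaks held a median of 68.6% of the gene's CPM (33.1% to 100%), and over 50% in 23 genes. The start held the smallest share in Epha10 (33.1%), Efna2 (33.6%) and Nrp2 (35.9%).

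**Figure D3:**
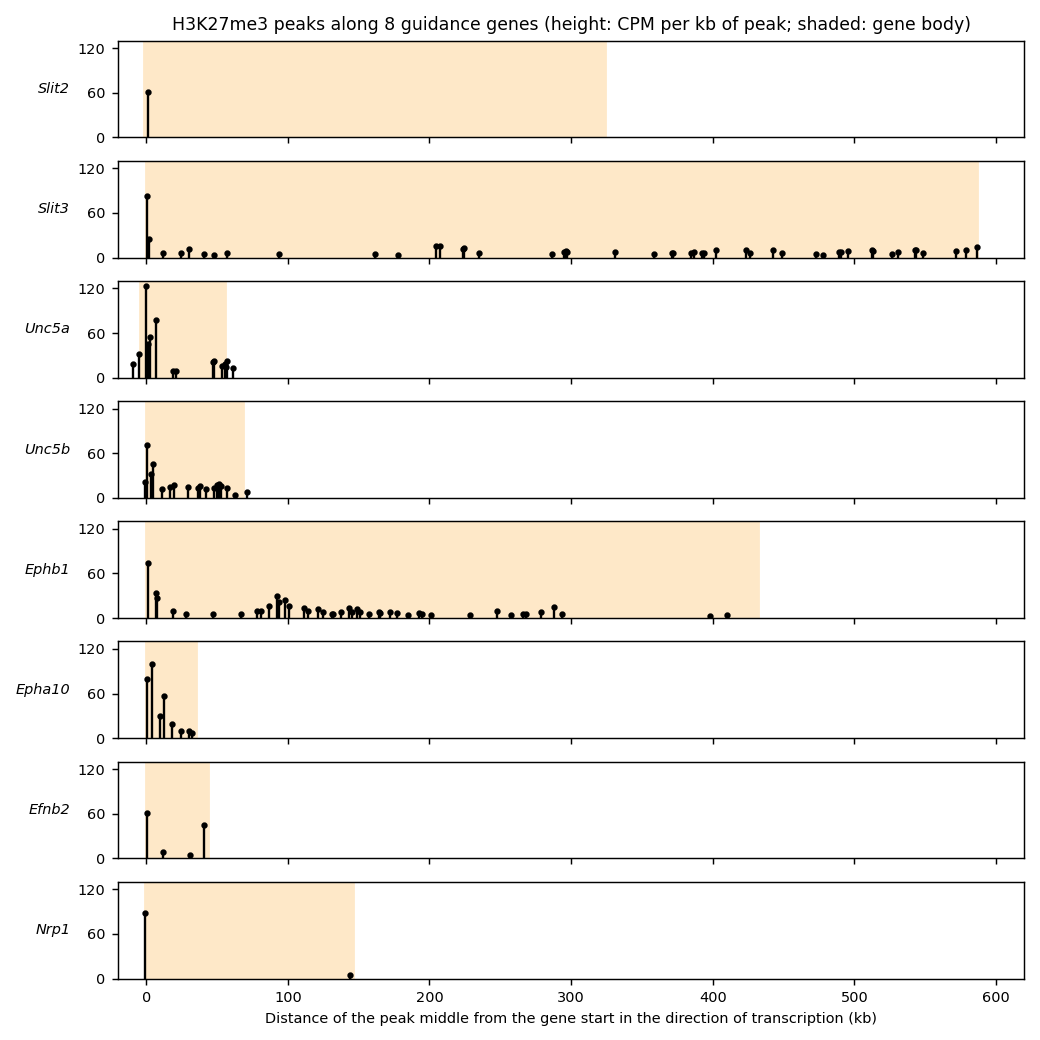
Distance of each peak's middle from the gene start in kb (x axis) against H3K27me3 in CPM per kb of peak, as the mean of the 3 deletion means (y axis), for 8 guidance genes with the gene body shaded. Slit2 has 1 peak at its start, Slit3 and Ephb1 have a tall start peak at 83.4 and 73.7 and low peaks along the gene, and Unc5a and Epha10 hold several tall peaks within a short gene.

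In the Hoxa deletion the genes called were 4 of 7 ephrins, 4 of 7 netrin genes, 3 of 13 Eph receptors, 3 of 8 semaphorins and neuropilins and 0 of 6 Slit and Robo genes, and no test compared these groups. Of 41 genes tested, 14 passed edgeR's quasi-likelihood test at a Benjamini-Hochberg adjusted p below 0.05 over all genes, 9 higher and 5 lower than in the other deletions. Over all 16302 genes tested, 11.8% were called higher and 5.37% lower, and the guidance genes stood at 22.0% and 12.2%. The median SE of the log2 fold change was 0.07 for the guidance genes and 0.13 for all genes. The 5 lower genes must be read beside chromosome 8. On that chromosome 68.6% of 910 tested genes were called lower in the Hoxa deletion, with a median log2 fold change of -0.50, and it holds 3 of the 5 (Efnb2, Nrp1 and Unc5d), which are all its guidance genes. Elsewhere, 9 guidance genes of 38 (23.7%) were higher and 2 (5.26%) lower, where all genes off chromosome 8 had 12.5% and 1.64%. The share called also varied with level. Off chromosome 8 and from 10.8 to 22.7 CPM per kb, 3 of 12 guidance genes were higher, where 20.3% of all genes were. Above 22.7 CPM per kb, 5 of 25 were higher and 2 lower, where 10.5% and 2.54% of all genes were. The median log2 fold change of the 41 genes was -0.02, against 0.06 over all genes. The Hoxa libraries lay above all 4 others in 13 guidance genes and below all 4 in 7, where 16.6% of all genes were above and 7.88% below. Of the pluripotency markers, 2 of 7 with a peak were called higher as well, and their part in these differences was not tested.

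Of 7 ephrins, 3 rose in the Hoxa deletion (42.9%, against 11.8% of all genes), all of the A class, and Efnb2 fell. At the levels of Efna1 and Efna4, 20.3% of all genes off chromosome 8 were higher, and at that of Efna2 10.5%. Efna1 and Efna4 lie close together on chromosome 3, at 89271730-89280951 and 89333393-89338028, with Efna3 between them, so they may not be separate instances. Efna1, a ligand of the Epha receptors first known as a gene induced by tumour necrosis factor, had 125, 124 and 118 CPM in the Hoxa libraries, 87.5 and 84.0 in the Wnt6 libraries and 70.2 and 73.1 in the Hmx1 libraries. Its log2 fold change was 0.63 (SE 0.07, edgeR adjusted p = 5.91e-09), and the Hoxa libraries stood clear of the rest. Each of its 7 peaks was higher at an adjusted p below 0.05, with a median log2 fold change of 1.12, and 4 of the 7 also lay within 5 kb of another gene. Efna4 had 39.6, 38.2 and 41.7 CPM in the Hoxa, 30.7 and 28.5 in the Wnt6 and 30.9 and 28.1 in the Hmx1 libraries, a log2 fold change of 0.44 (SE 0.10, edgeR adjusted p = 0.000599). Efna2 had 174, 166 and 170 against 152 and 148 in the Wnt6 and 134 and 133 in the Hmx1 libraries, a log2 fold change of 0.26 (SE 0.07, edgeR adjusted p = 0.00465). For Efna2 the call was lost against the Wnt6 libraries alone (log2 fold change 0.18, edgeR adjusted p = 0.0902) and without its shared peak (edgeR adjusted p = 0.129). Efna3, Efna5 and Efnb3 were not called, at 0.04, -0.06 and 0.07.

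Of the receptors of ephrins, 3 of 13 rose. Epha4, a repulsive receptor of motor and corticospinal axons, had 112, 111 and 105 CPM in the Hoxa, 82.1 and 73.0 in the Wnt6 and 87.9 and 87.1 in the Hmx1 libraries. Its log2 fold change was 0.41 (SE 0.07, edgeR adjusted p = 2.74e-05). Ephb4, the receptor that marks veins, had the largest rise on the log2 scale from the lowest level: 15.1, 17.3 and 17.0 CPM in the Hoxa libraries, 11.3 and 10.2 in the Wnt6 and 7.95 and 7.28 in the Hmx1 libraries (log2 fold change 0.84, SE 0.14, edgeR adjusted p = 1.42e-05). In both genes the Hoxa libraries did not overlap the others. Ephb3 was the ninth gene called higher and is named after its values were seen (46.4, 46.3 and 51.0 CPM in the Hoxa, 41.5 and 35.6 in the Wnt6 and 45.0 and 34.2 in the Hmx1 libraries, log2 fold change 0.32, edgeR adjusted p = 0.0127). Its call was lost without Hoxa replicate 3, Wnt6 replicate 2 or Hmx1 replicate 2, where the adjusted p was 0.0837, 0.0688 and 0.0866.

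Netrin-related genes went both ways. Ntn1, the attractant of the floor plate, had 191, 183 and 178 CPM in the Hoxa, 142 and 130 in the Wnt6 and 130 and 138 in the Hmx1 libraries, a log2 fold change of 0.45 (SE 0.07, edgeR adjusted p = 1.07e-06). Unc5b, a netrin receptor also found on blood vessel tips, had 367, 362 and 360 against 271 and 256 in the Wnt6 and 264 and 284 in the Hmx1 libraries, a log2 fold change of 0.43 (SE 0.06, edgeR adjusted p = 7.05e-07). All 18 of its peaks had a log2 fold change above 0, and 11 had an adjusted p below 0.05. Dcc had 71.0, 66.5 and 64.2 CPM in the Hoxa libraries, 84.6 and 84.9 in the Wnt6 and 88.9 and 95.2 in the Hmx1 libraries, and fell (log2 fold change -0.40, SE 0.08, edgeR adjusted p = 7.86e-05). H3K27me3 was thus higher over Ntn1 and lower over Dcc in the same libraries, which measured neither RNA nor protein. Ntn4, Unc5a and Unc5c were not called, at -0.04, -0.02 and -0.13.

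Among the semaphorins, Sema3f, a repellent that acts through Nrp2, had 509, 467 and 486 CPM in the Hoxa, 424 and 378 in the Wnt6 and 382 and 387 in the Hmx1 libraries, a log2 fold change of 0.31 (SE 0.06, edgeR adjusted p = 0.000124). Sema3e, which acts on blood vessels through Plxnd1, was lower, with 17.4, 15.8 and 17.7 CPM in the Hoxa, 37.9 and 33.1 in the Wnt6 and 33.6 and 31.0 in the Hmx1 libraries. Its log2 fold change was -0.998 (SE 0.11, edgeR adjusted p = 1.43e-09), the largest fall among the guidance genes off chromosome 8, and every Hoxa library was below every other. Nrp2, Sema3a, Sema3c, Sema3d and Sema6d were not called, between -0.19 and 0.10.

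The 3 genes on chromosome 8 were also clearly separated. Efnb2, the ephrin that marks arteries and is bound by Ephb4, had 137, 137 and 129 CPM in the Hoxa, 292 and 245 in the Wnt6 and 271 and 269 in the Hmx1 libraries, a log2 fold change of -1.002 (SE 0.07, edgeR adjusted p = 9.60e-16). Nrp1 had 224, 210 and 204 against 337 and 293 in the Wnt6 and 330 and 335 in the Hmx1 libraries, a log2 fold change of -0.61 (SE 0.07, edgeR adjusted p = 1.69e-09). Unc5d had 203, 189 and 199 against 298 and 256 in the Wnt6 and 330 and 305 in the Hmx1 libraries, a log2 fold change of -0.60 (SE 0.07, edgeR adjusted p = 9.51e-09). With the median of each chromosome removed, Efnb2 stayed lower at -0.51 (edgeR adjusted p = 1.87e-07), while Nrp1 at -0.11 and Unc5d at -0.10 lost their calls (edgeR adjusted p = 0.264 and 0.333).

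**Figure D4:**
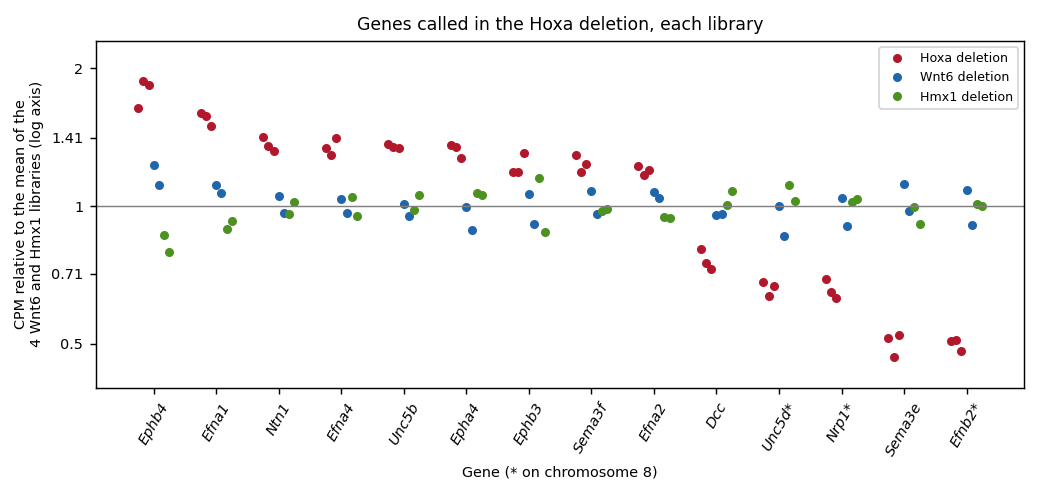
CPM of each library divided by the mean of the 4 Wnt6 and Hmx1 libraries (y axis, log scale) for the 14 guidance genes called in the Hoxa deletion (x axis, from highest to lowest fold change, an asterisk for chromosome 8). The 3 Hoxa libraries lie above all others in the 9 genes on the left and below all others in the 5 on the right; Ephb4 and Efna1 also have lower values in the Hmx1 than in the Wnt6 libraries.

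Of the 6 Slit and Robo genes described, which leave out Robo4, none was called in the Hoxa deletion (0 of 6 by edgeR, 1 with an unadjusted p below 0.05). The log2 fold changes of the 6 ran from -0.13 in Robo2 to 0.15 in Robo3, and all 6 of their 95% intervals lay within 0.5 of 0. Against the Wnt6 libraries alone Robo3 was called higher (log2 fold change 0.20, edgeR adjusted p = 0.0432). Of the 8 Robo3 peaks, 7 had a log2 fold change above 0, and 2 were higher at an edgeR adjusted p below 0.05. The Hoxa libraries lay above all 4 others in Robo3 and below all 4 in Robo2, where 16.6% and 7.88% of all genes did so. A single Robo2 peak, chr16:74523647-74523894, was called lower (log2 fold change -1.25, edgeR adjusted p = 0.0483), and is named after its values were seen. Over the 41 guidance genes, 29 intervals lay within that range. Epha1 and Ephb6, which share chromosome 6 with the Hoxa cluster at 9.79 and 10.5 Mb from the removed stretch, had log2 fold changes of -0.08 (95% interval -0.26 to 0.09) and 0.12 (-0.02 to 0.25), neither called. Their sums were 54.7, 46.7 and 48.5 CPM for Epha1 and 156, 153 and 153 for Ephb6 in the Hoxa libraries, against 50.4 to 59.2 and 136 to 150 in the others.

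At single peaks, with an absolute log2 fold change above 1 required as well, 18 of the 347 peaks were called in the Hoxa deletion (5.19%, where 1.49% of all tested peaks were), 10 higher and 8 lower. They belonged to 8 genes, and 6 of the 8 lower peaks were on chromosome 8. The peak with the smallest adjusted p was in Efnb2 at chr8:8619660-8621427, near the end of the gene and not at its start, with 44.4, 44.7 and 42.8 CPM in the Hoxa libraries and 91.8 to 104 in the others (log2 fold change -1.13, edgeR adjusted p = 1.24e-13). A second one in Efnb2, chr8:8649236-8650069, had -1.06 (edgeR adjusted p = 1.63e-05). All 4 Efnb2 peaks were lower at an adjusted p below 0.05. The Sema3e peak at its start, chr5:14025180-14026150, had 16.7, 14.9 and 16.6 CPM against 29.7 to 36.8 (log2 fold change -1.03, edgeR adjusted p = 6.42e-09), and an Unc5d peak, chr8:29092851-29093407, had -1.44 from 0.838 to 1.22 CPM against 2.20 to 3.27 (edgeR adjusted p = 0.000639).

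The higher peaks with the smallest adjusted p held little of their gene's CPM. In Unc5b, chr10:60774354-60775130 had 15.05, 15.8 and 16.8 CPM in the Hoxa libraries and 7.10 to 7.75 in the others (log2 fold change 1.09, edgeR adjusted p = 9.76e-08), and chr10:60814166-60814726 had 12.1, 14.02 and 11.4 against 5.25 to 6.53 (1.07, edgeR adjusted p = 9.08e-07). Near Efna1, chr3:89269806-89271011, which lies beyond the end of the gene body, had 10.8, 11.8 and 9.54 CPM against 2.87 to 5.36 (1.28, edgeR adjusted p = 2.47e-07). In Ntn1, chr11:68276997-68277723 had 5.52, 6.19 and 7.15 CPM against 2.05 to 2.85 (1.36, edgeR adjusted p = 3.12e-06). None of these ranges overlapped. Without a fold minimum 65 guidance peaks were called, 42 of them higher, where 6299 of all 74395 peaks were called, 3216 of them higher. Ephb1 was not called as a gene (log2 fold change -0.16, edgeR adjusted p = 0.0646), and 40 of its 44 peaks had a log2 fold change below 0, 5 of them at an adjusted p below 0.05.

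**Figure D5:**
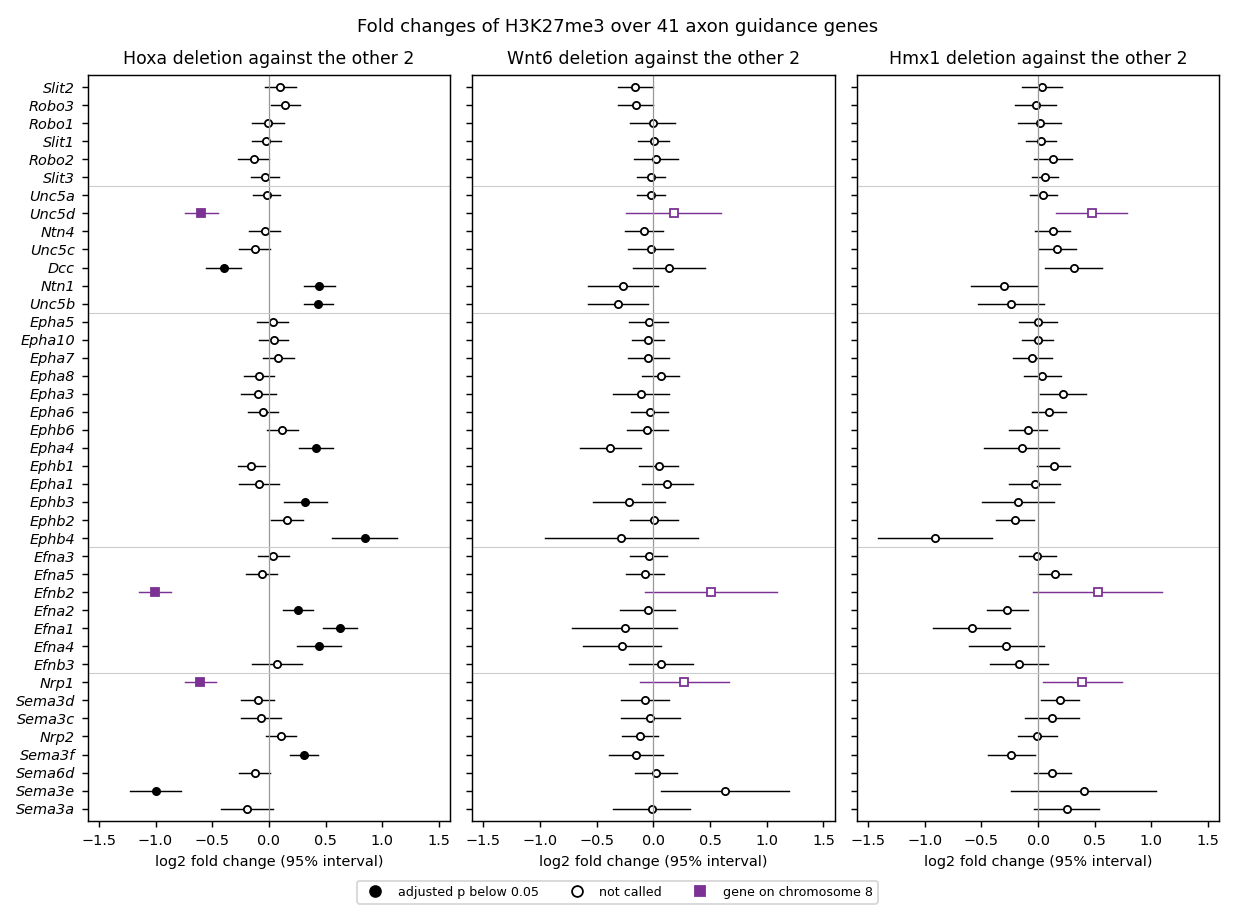
Log2 fold change of H3K27me3 with its 95% interval (x axis) for 41 guidance genes (y axis, by subfamily), with 1 panel for each deletion against the other 2 pooled; filled symbols passed an adjusted p of 0.05 and squares are on chromosome 8. The Hoxa panel has 14 filled symbols, from Efnb2 at -1.002 and Sema3e at -0.998 to Ephb4 at 0.84, and the Wnt6 and Hmx1 panels have none.

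In the Wnt6 deletion no guidance gene was called by edgeR or by DESeq2 (0 of 41, 5 with an unadjusted edgeR p below 0.05, smallest adjusted p 0.902), where edgeR called 0.00613% of all genes. The pooled comparison group holds the 3 Hoxa libraries. The gene with the smallest p among those higher was Sema3e at 0.63 (95% interval 0.07 to 1.19), with 37.9 and 33.1 CPM in the Wnt6 libraries, 33.6 and 31.0 in the Hmx1 and 15.8 to 17.7 in the Hoxa libraries. Among those lower it was Epha4 at -0.38 (-0.65 to -0.11), with 82.1 and 73.0 CPM against 87.1 and 87.9 in the Hmx1 and 105 to 112 in the Hoxa libraries. Epha4 is also the guidance gene nearest to a deletion, 2.47 Mb from the stretch removed at Wnt6 on chromosome 1. Its single large peak, chr1:77513405-77516506, had -0.38 (edgeR adjusted p = 0.920). Nrp2, 11.9 Mb from that stretch, had -0.12 (-0.28 to 0.04), with 295 and 259 CPM against 292 to 324. With a term for each genotype, so that the deletion is set against the mean of the other 2 deletions, 5 guidance genes were called: Sema3e (0.60) and Efnb2 (0.49), Nrp1 (0.24), Unc5b (-0.26) and Epha4 (-0.35). With that model 463 of all 16307 genes were called. Efnb2 and Nrp1 lie on chromosome 8, where the median log2 fold change of all genes in the pooled Wnt6 contrast was 0.27. Against the Hmx1 libraries alone no guidance gene was called. No guidance peak was called (0 of 347), where 0.00403% of all peaks were. An unadjusted edgeR p below 0.05 was seen at 20 of the 347 and at 3839 of all 74407 tested. The guidance peak with the smallest p among those higher was the Sema3e start peak (0.64, edgeR adjusted p = 0.920).

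In the Hmx1 deletion no guidance gene was called by edgeR (0 of 41, 13 with an unadjusted p below 0.05, smallest adjusted p 0.140), where 0.0797% of all genes were. DESeq2, which called 395 of all 16312 genes, called 3: Unc5d (0.50, adjusted p = 0.0462), Efna1 (-0.55, adjusted p = 0.0154) and Ephb4 (-0.87, adjusted p = 0.00904). In edgeR, Unc5d had the smallest p among the higher genes at 0.47 (95% interval 0.16 to 0.79), with 330 and 305 CPM in the Hmx1, 298 and 256 in the Wnt6 and 189 to 203 in the Hoxa libraries. Ephb4 had it among the lower genes at -0.91 (-1.42 to -0.41), with 7.95 and 7.28 CPM against 10.2 and 11.3 in the Wnt6 and 15.1 to 17.3 in the Hoxa libraries. In both genes the Hmx1 libraries lay beyond all others. Unc5d is on chromosome 8, where the median log2 fold change in this contrast was 0.28. A term for each genotype gave 10 calls, 5 in each direction, from Efnb2 at 0.51 to Ephb4 at -0.82. With that model 1479 of all 16312 genes were called. Against the Wnt6 libraries alone no guidance gene was called.

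Chromosome 5, which carries Hmx1, holds 7 guidance genes with a peak, and none was called. Slit2, at 12.6 Mb the nearest to the removed stretch, had a log2 fold change of 0.03 (95% interval -0.14 to 0.21). Sema3c at 17.7 Mb had 0.12 (-0.11 to 0.36), Sema3e at 21.1 Mb 0.40 (-0.24 to 1.04), Sema3a at 21.8 Mb 0.25 (-0.03 to 0.54) and Sema3d at 22.8 Mb 0.19 (0.02 to 0.36). For Sema3e the pooled group holds the low Hoxa libraries, and its mean was 32.3 CPM in the Hmx1 and 35.5 in the Wnt6 libraries. Epha5 at 48.7 Mb had 0.00 (-0.16 to 0.17) and Ephb4 lay 102 Mb away. Among single peaks, 0 of 347 were called, where 0.0134% of all peaks were. An unadjusted edgeR p below 0.05 was seen at 51 of the 347 and at 6657 of all 74430 tested. Among the guidance peaks the smallest p values were at an Unc5d peak, chr8:29218331-29219997 (0.45, edgeR adjusted p = 0.330), and an Efna1 peak, chr3:89280743-89281515 (-0.66, edgeR adjusted p = 0.192). DESeq2 called 1 guidance peak, a lower one, and 31 of all 74430 peaks.

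Other genes of the pathway, from a list made from general knowledge of axon guidance, were called as follows. Of 36 further ligands and receptors with a peak, 6 were higher (16.7%) and 1 lower (2.78%) in the Hoxa deletion, and of 26 intracellular effectors 1 was higher and 1 lower (3.85% each), where all genes had 11.8% and 5.37%. None of either list was called in the Wnt6 or the Hmx1 deletion. The further ligands and receptors had a median of 28.1 CPM per kb of peak and the effectors, most of which are used in all cells, 14.7.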

How the data were processed

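H3K27me3 Cut&Tag counts of 7 libraries (3 Hoxa, 2 Wnt6 and 2 Hmx1 deletion) were analysed. The authors deposited raw counts over 1 shared list of peaks, without normalization. Per the labels the build was mm10, and the submitters' processing notes name Bowtie2, Trimmomatic, SAMtools, Picard, MACS2 and deepTools. Versions, how the peak list was built, and whether reads or fragments were counted are not given in the sources used here. The 7 IgG libraries were not analysed here, so no background was subtracted.

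The 42 genes, their lists and the tests were chosen with earlier results of these data known. Peaks within 5 kb of a RefSeq gene body (GRCm38.p6) were summed per gene, and peak positions are given as deposited, with the convention of the start not stated. Starts and strands came from the RefSeq promoter table. For the 5 guidance genes with several entries, as for all others, the start with the highest level was taken. In R 4.3.3, edgeR 4.0.16 (filterByExpr by genotype, TMM on the peak table, glmQLFit, glmQLFTest) compared each deletion with the other 2 pooled over all genes or peaks. Genes were called at a Benjamini-Hochberg adjusted p below 0.05 and peaks also at an absolute log2 fold change above 1, the latter after the study's thresholds. The script was tested on simulated data. SE and 95% intervals come from the same fit. Total counts of 6016500 to 36563541 per library set the precision, and PCR copies were not told apart from molecules.

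Genes given in full were, by rule, the 2 highest per kb in each subfamily, the 3 lowest, up to 8 called in each direction per deletion (or the smallest p where none was called), up to 4 called peaks in each direction, and those on a deleted chromosome. Alternatives were DESeq2 1.42.0, other scaling, filters and windows, single deletions as comparison, a term for each genotype, replicate blocks, leaving out each library, downsampling and removal of chromosome medians. Offsets by abundance and the count without chromosome 8 were chosen after seeing the data.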

Additional observations from a re-analysis of the deposited data

How the results depend on the processing

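Of 14 guidance genes called in the Hoxa deletion, none changed sign under any alternative run. Efnb2 kept its call in every alternative. Dcc, Efna1, Efna4, Epha4, Ephb4, Ntn1, Sema3e, Sema3f and Unc5b kept theirs in all but a minimum absolute log2 fold change of 1. Nrp1 and Unc5d kept theirs in all but that minimum and the removal of chromosome medians. The fold minimum aside, Efna2 kept its call in 21 of 25 and Ephb3 in 17 of 25. The count of genes called was 13 to 17 with each library left out, 9 of 35 when only peaks within 5 kb of the start were summed, which leaves out genes without a promoter entry, and 1 (Efnb2) with that fold minimum. Called peaks numbered 13 to 18 with each library left out, 10 with chromosome medians removed and 65 with no fold minimum. Of all 74395 peaks, 459 were called with chromosome medians removed and 6299 with no fold minimum. In the Wnt6 deletion, 5 genes were called with a term for each genotype, and against the Hoxa libraries alone 14 genes and 13 peaks, with no gene or peak when any library was left out. In the Hmx1 deletion the genes called were 3 in DESeq2, 10 with a term for each genotype, 17 against the Hoxa libraries alone, and 0 to 3 with each library left out: Unc5d without Wnt6 replicate 1, and Efna1, Ephb4 and Sema3f without Wnt6 replicate 2. The Hmx1 peaks called were 1 in DESeq2, 2 with a term for each genotype, 19 against the Hoxa libraries alone and 0 to 2 with each library left out, the 2 without Wnt6 replicate 1. Over all genes, the term for each genotype called 463 of 16307 in the Wnt6 and 1479 of 16312 in the Hmx1 deletion. Against the Hoxa libraries alone, 2086 and 2875 genes were called, and 885 of 74407 and 1326 of 74430 peaks. In the Hmx1 deletion DESeq2 called 395 genes and 31 peaks, and the term for each genotype 207 peaks. There 167 genes and 68 peaks were called without Wnt6 replicate 1, and 475 genes without Wnt6 replicate 2. The cause of these differences between settings was not tested, other than that fewer genes enter the fit on starts.

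The median log2 fold change of the guidance genes in the Hoxa deletion was -0.0755 in DESeq2 and -0.105 with chromosome medians removed, and -0.0427 to -0.00642 with each library left out. In the Wnt6 deletion it was -0.117 to 0.0126 with each library left out. In the Hmx1 deletion it was 0.0624 in DESeq2, -0.00568 with library totals alone, 0.0495 against the Wnt6 libraries alone, 0.0878 with chromosome medians removed, -0.0230 with offsets by abundance, and -0.00345 to 0.0420 with each library left out. The median level was 1.0001 CPM per kb of gene body plus window in place of 32.5 per kb of peak.

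Correlations of the deviations of same-numbered libraries from their deletion means were -0.05 to 0.08 by title number and -0.118 to 0.0583 by library number. With 2 libraries in a deletion the deviations mirror each other. These values therefore cannot show whether the numbers pair libraries, and the main fit used no block. With a replicate block by title number the Hoxa deletion had 13 called genes and 13 called peaks, and by library number 13 and 14, and no gene or peak was called in the other 2 deletions under either block.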

Other observations

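Of 14 further semaphorins with a peak, 3 were called higher in the Hoxa deletion and 11 were not called, among them Sema4d at -0.33 (edgeR adjusted p = 0.0551). Of the 3, Sema4f had 114, 96.3 and 107 CPM in the Hoxa libraries and 69.3 to 81.5 in the others (log2 fold change 0.49, edgeR adjusted p = 1.87e-06), Sema3g 126, 122 and 119 against 89.0 to 94.7 (0.43, edgeR adjusted p = 3.37e-06), and Sema3b 100.3, 105 and 102 against 76.8 to 84.7 (0.36, edgeR adjusted p = 0.000144). Robo4, the Robo receptor of blood vessels, was called (0.44, edgeR adjusted p = 9.39e-06) where no Slit or other Robo gene was. Ntn5 rose by 0.31 (edgeR adjusted p = 0.000689). Of the plexins, which are semaphorin receptors, Plxnb2 was higher by 0.61 (edgeR adjusted p = 4.18e-05) and Plxnc1 fell by 0.19 (edgeR adjusted p = 0.0357). Of the effectors, Srgap1, which acts below Robo receptors, was higher by 0.27 (edgeR adjusted p = 0.0125), and Vav2, which acts below Eph receptors, fell by 0.52 (edgeR adjusted p = 0.000214). All 9 lie off chromosome 8, and Sema4f lies on chromosome 6, the chromosome of the Hoxa deletion.

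Of 7 pluripotency markers with a peak, Klf4 (0.66, edgeR adjusted p = 4.80e-07) and Tfcp2l1 (0.84, edgeR adjusted p = 0.00041) were higher in the Hoxa deletion. Zfp42 at -0.55 (edgeR adjusted p = 0.123), Nanog, Pou5f1, Sox2 and Esrrb were not called. Of 10 Polycomb target markers, Tbx3 alone was called (0.74, edgeR adjusted p = 9.83e-12). Their part in the differences at guidance genes was not tested.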
